A study of Mus musculus with 3 samples.

Results

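The tubulin isotypes examined here were 4 alpha-tubulin genes (Tuba1a, Tuba1b, Tuba1c and Tuba4a) and 6 beta-tubulin genes (Tubb2a, Tubb2b, Tubb3, Tubb4a, Tubb4b and Tubb5), chosen by name and read from every non-control probe whose accession belongs to them. Of these 10 genes, 9 had at least 1 probe, out of 18350 named genes on the array, and Tuba1b had none that could be named. The 9 genes were read by 15 probes, and all 15 were well above background on all 3 arrays. Levels were compared in cultures of C2C12 cells, mouse myoblasts of an established line that form multinucleated myotubes by fusion, on 1-colour Agilent arrays with 1 array per culture. The neurogenic cellulates were C2C12 myotubes given AraC (10 µM, day 2 to day 4 of 8 days in 2% horse serum) and split into mononucleate cellulates with myoseverin for 48 h. They were exposed for 2 days to BIO, a GSK-3 inhibitor, whose start is listed at 24 h. They were also given 250 nM reversine for 48 h, and kept for 7 days in DMEM/F12 with N2 and 1.5 µM all-trans retinoic acid. The BIO cellulates had the same AraC, myoseverin and BIO, without the neurogenic steps. The myoblasts were untreated C2C12 cells. The sources conflict on doses: BIO is 2.5 µM by the sample labels but 10 µM by the protocols, while myoseverin is 20 µM by the series text but 30 µM by the protocol. All 3 cultures come from 1 immortalised line, and no myotubes or cellulates without BIO were analysed here, so the parts of fusion, AraC, myoseverin and BIO cannot be told apart in comparisons with myoblasts, nor those of reversine, retinoic acid, medium and time after BIO.

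Microtubules are polymers of alpha- and beta-tubulin dimers, and mammals encode each subunit in several genes, the isotypes, whose proteins differ mainly in their acidic tails. Myotubes rearrange their microtubules from a centrosome to the nuclear surface and into parallel arrays, and myoseverin is a purine that binds tubulin and breaks these arrays up. Tubulin mRNA is also under feedback from the protein: when free dimers are in excess, TTC5 binds the nascent tubulin chain at the ribosome, and SCAPER with the CCR4-NOT deadenylase then brings about decay of the mRNA. That feedback is known from other cultured mammalian cells treated with microtubule drugs and was not measured here.

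The promoters of 5 members are shown because they represent the patterns described below: Tuba1c, Tubb4b and Tubb5 were lower in BIO cellulates than in myoblasts, Tuba4a was not, and Tuba1a was far higher on the neurogenic array. Each line gives the 250 bases before the annotated start from RefSeq, build GRCm38.p6, written 5′ to 3′ on the gene's strand, with the letters CCAAT in capitals where they occur on either strand (ATTGG on the opposite one).
Tuba1c, chr15:99029641-99029890, plus strand: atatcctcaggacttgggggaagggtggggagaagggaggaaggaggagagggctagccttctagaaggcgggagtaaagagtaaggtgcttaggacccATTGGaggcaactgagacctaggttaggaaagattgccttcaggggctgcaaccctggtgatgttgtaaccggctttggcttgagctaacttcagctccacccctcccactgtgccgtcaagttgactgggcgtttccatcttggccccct
Tubb4b, chr2:25224703-25224952, minus strand: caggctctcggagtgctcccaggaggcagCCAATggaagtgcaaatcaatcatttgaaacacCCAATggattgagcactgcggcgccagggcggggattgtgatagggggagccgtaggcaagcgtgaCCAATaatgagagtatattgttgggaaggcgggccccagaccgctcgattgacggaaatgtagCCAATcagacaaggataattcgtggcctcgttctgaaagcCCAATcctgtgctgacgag
Tubb5, chr17:35838302-35838551, minus strand: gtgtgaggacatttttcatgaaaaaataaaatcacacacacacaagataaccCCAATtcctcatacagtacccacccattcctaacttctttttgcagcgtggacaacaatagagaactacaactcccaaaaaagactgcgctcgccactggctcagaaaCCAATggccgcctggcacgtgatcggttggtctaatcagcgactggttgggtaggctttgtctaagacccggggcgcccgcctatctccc
Tuba1a, chr15:98953502-98953751, minus strand: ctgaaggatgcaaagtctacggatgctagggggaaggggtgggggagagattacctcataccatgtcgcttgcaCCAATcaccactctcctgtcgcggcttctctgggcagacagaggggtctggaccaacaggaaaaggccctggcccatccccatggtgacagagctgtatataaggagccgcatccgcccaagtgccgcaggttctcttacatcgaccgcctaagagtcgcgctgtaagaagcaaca
Tuba4a, chr1:75219295-75219544, minus strand: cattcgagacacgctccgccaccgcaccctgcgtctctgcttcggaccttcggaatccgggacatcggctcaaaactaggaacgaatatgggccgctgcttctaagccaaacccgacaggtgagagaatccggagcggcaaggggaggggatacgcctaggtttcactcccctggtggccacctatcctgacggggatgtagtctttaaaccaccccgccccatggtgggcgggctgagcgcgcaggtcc
RefSeq promoters matched 9 of the 10 members. CCAAT was present in 5 of these 9 (Tuba1a, Tuba1c, Tubb3, Tubb4b and Tubb5) and in 33.8% of all 32851 promoter windows of that length. Tubb4b held 5 matches and Tubb5 held 2. GGGCGG, also sought as CCGCCC, was present in 6 of 9 members and 32.7% of all windows, and the palindromic E-box CANNTG in 7 of 9 and 66.2%. TATAAA, also sought as TTTATA, was present in Tubb2a alone among the 9, against 12.4% of all windows. Among the 9 members the only matches that overlapped were a GGGCGG and an E-box in Tuba1a, which share 1 base. Tubb4a, whose promoter is not shown, was also lower in BIO cellulates than in myoblasts (log2 ratio -0.83) and held 0 matches to all of these motifs. The matches describe the letters only, and a link between them and the levels was not tested.

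Across the arrays, 45.7% of 43379 non-control spots were well above background for neurogenic cellulates, 46.9% for BIO cellulates and 50.7% for myoblasts, and none was saturated. Levels below are log2 signals minus the log2 75th percentile of the array, so that 0 is the 75th percentile, and differences are log2 ratios with the first-named culture on top. With 1 array per culture no difference has a replicate check or a p-value, and how many cultures each array stands for is not given in the sources used here. Repeat spots of 115 probes spotted 10 times put 95% of single-spot ratios of BIO cellulates over myoblasts within 1.21-fold of the probe's mean. The limit was 1.21-fold for neurogenic over BIO cellulates and 1.23-fold for neurogenic cellulates over myoblasts, and it covers spot-to-spot error only. Fewer cells of a type and less RNA per cell cannot be told apart in these cultures.

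The 3 cultures were checked against marker genes. All 9 muscle markers were well above background on all 3 arrays, and their summed signal, in multiples of the 75th percentile, was 1792 in neurogenic cellulates, 2123 in BIO cellulates and 88.8 in myoblasts. Of 9 neuronal markers other than Tubb3, 4 were well above background in neurogenic cellulates, 5 in BIO cellulates and 4 in myoblasts, and their summed signals were 2.75, 2.27 and 3.62 in that order. With Tubb3, which made up most of the signal, the sums were 6.60, 6.86 and 11.2. The order of neurogenic and BIO cellulates thus depends on Tubb3. Map2 was the brightest of the other 9 on all 3 arrays, at log2 levels of 0.26, -0.60 and 1.47 in the same order. The order of the sums without Tubb3, with myoblasts highest, depends on Map2. Nefl, Syp and Snap25, which mark neurons and their synapses, did not pass as well above background on any of the 3 arrays. Of 6 fibroblast markers, Pdgfra and Lum did not pass either, and the other 4 were measured on all 3 arrays. Summed fibroblast marker signal, nearly all from the collagen genes Col1a1 and Col1a2, was 1379 in neurogenic cellulates, 1679 in BIO cellulates and 2139 in myoblasts. Dcn, the gene of the matrix proteoglycan decorin, ran the other way. It was 6.47-fold higher in neurogenic than in BIO cellulates and 6.58-fold higher than in myoblasts. Thy1 was highest in BIO cellulates, where it was 1.77-fold higher than in myoblasts. In neurogenic cellulates Thy1 was 1.60-fold higher than in myoblasts and 1.10-fold lower than in BIO cellulates.

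**Figure D1:**
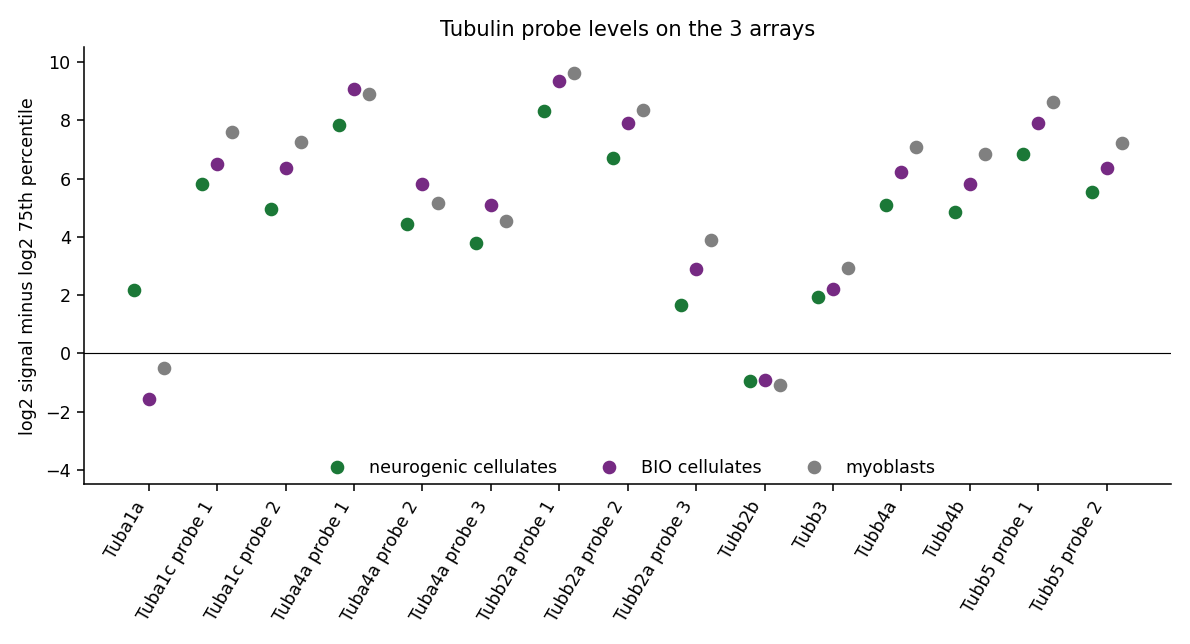
Level of each tubulin probe on the 3 arrays, as log2 signal minus the log2 75th percentile of the array (y axis), with 1 point per array and the probes of a gene numbered from bright to dim. Most probes step down from myoblasts through BIO cellulates to neurogenic cellulates, while the Tuba4a probes peak in BIO cellulates and the Tuba1a probe peaks at 2.18 in neurogenic cellulates.

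BIO cellulates were first compared with myoblasts. Of the 9 isotypes, 7 had log2 ratios below 0, and Tuba4a and Tubb2b did not. Over the 9 genes the median log2 ratio was -0.72, against 0.00 over all 12825 genes compared. Of the 9 genes, 3 were at least 2-fold lower (Tuba1a, Tuba1c and Tubb4b), where 6% of all genes were, and 0 were at least 2-fold higher, where 11.2% of all genes were. Tubb4b sat just inside that limit with a log2 ratio of -1.002 and Tubb4a just outside it with -0.83. The alpha isotypes had a median of -1.04 over 3 genes and the beta isotypes of -0.72 over 6. The count of lower genes was 6 under array-median scaling, where 28.8% of all genes were lower. It was 1 after quantile normalisation, where 6.30% of all genes were, and 0 with the 75th percentile taken over probes well above background on all 3 arrays, where 4.32% were.

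Neurogenic cellulates were then compared with BIO cellulates. Here 8 of 9 genes had log2 ratios below 0 and Tuba1a stood alone above it. The median was -0.97, against -0.17 over all 12255 genes compared. Of the 9 genes, 4 were at least 2-fold lower (Tuba4a, Tubb2a, Tubb4a and Tubb5), where 1.8% of all genes were, and 1 was at least 2-fold higher (Tuba1a), where 4.16% of all genes were. Of all genes compared, 0.963% had a ratio below that of Tuba4a, 1.17% below Tubb4a, 1.54% below Tubb5, 1.62% below Tubb2a and 1.96% below Tubb4b, so these 5 lay close together in the lower tail. The count of lower genes rests on the scaling. It was 2 after normexp background correction, where 0.571% of all genes were lower. It was 1 with the 75th percentile taken over probes well above background on all 3 arrays, where 1.11% were. It was 0 with spike-in scaling, where 0.677% were, and with quantile normalisation, where 1.70% were. Tubb4b, at -0.97, was just outside the limit and Tubb2a, at -1.03, just inside it.

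Set against myoblasts, neurogenic cellulates had a median of -1.29 over the 9 genes and of -0.06 over all 12853 genes compared. Of the 9 genes, 6 were at least 2-fold lower (Tuba1c, Tuba4a, Tubb2a, Tubb4a, Tubb4b and Tubb5), where 10% of all genes were, and Tuba1a was the 1 at least 2-fold higher, where 12.1% of all genes were. The 3 comparisons share arrays with each other, so this one follows from the other two and is no separate evidence.

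**Figure D2:**
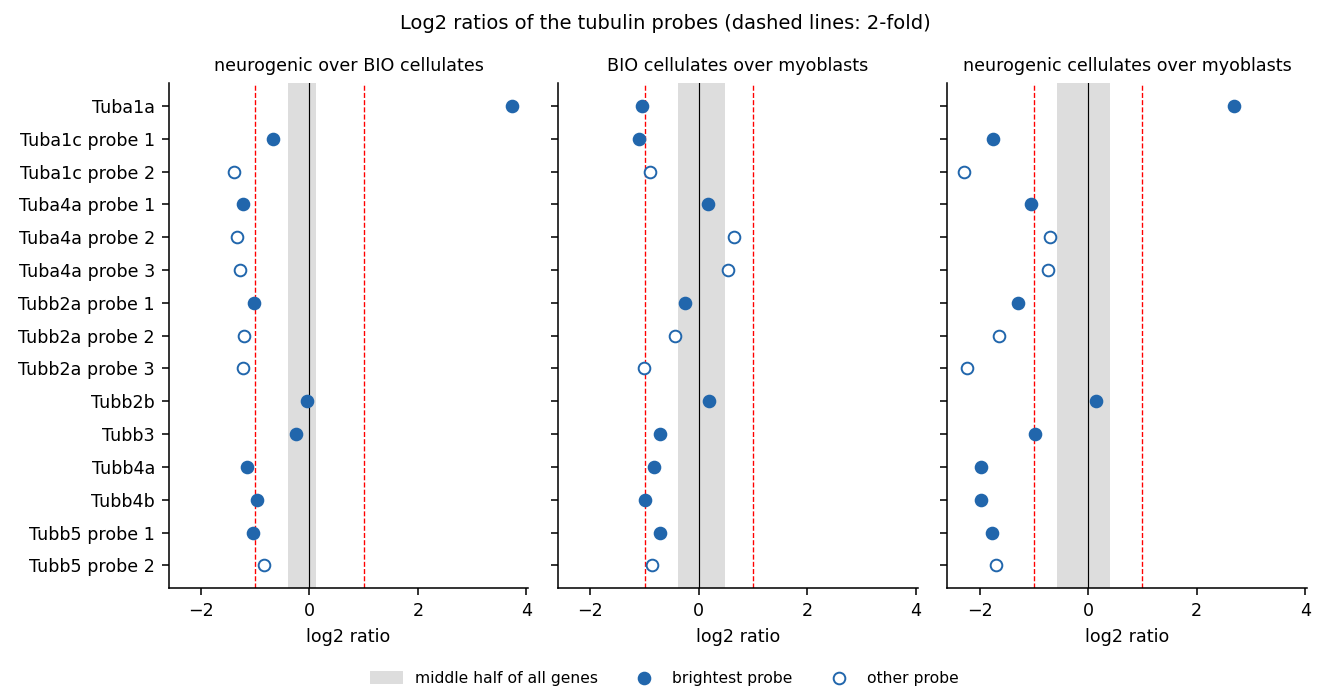
Log2 ratio (x axis) of each tubulin probe in the 3 comparisons, with filled points for the brightest probe of a gene, open points for its other probes, dashed lines at 2-fold and a grey band for the interquartile range of all genes. The beta isotypes Tubb4a, Tubb4b and Tubb5 lie left of the band in all 3 panels, and Tuba1a lies at 3.74 for neurogenic over BIO cellulates.

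Among the alpha isotypes, Tuba1c is widely expressed and encodes a subunit close to those of Tuba1a and Tuba1b. Its brightest probe (A_52_P479099) read 5.82 in neurogenic cellulates, 6.49 in BIO cellulates and 7.58 in myoblasts. Its second probe read 4.96, 6.36 and 7.26 in the same order. Both probes were highest in myoblasts and lowest in neurogenic cellulates. By the brightest probe, BIO cellulates were 2.14-fold lower than myoblasts, and neurogenic cellulates were 3.40-fold lower than myoblasts. The probes differed on the later step, with log2 ratios of neurogenic over BIO cellulates of -0.67 and -1.40, a gap of 1.66-fold that exceeds the spot-to-spot limit.

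Tuba4a encodes an alpha-tubulin that ends without the terminal tyrosine found on most others. Its brightest probe (A_52_P676271) read 7.83 in neurogenic cellulates, 9.06 in BIO cellulates and 8.89 in myoblasts. The second read 4.45, 5.80 and 5.15, and the dimmest 3.80, 5.08 and 4.54. All 3 probes were highest in BIO cellulates, so Tuba4a had a pattern unlike Tuba1c. The log2 ratios of BIO cellulates over myoblasts were 0.16, 0.64 and 0.55, of which the last pair exceed the spot-to-spot limit. This sign depends on the scaling, since the brightest probe gave -0.56 under array-median scaling and -0.16 after normexp correction. Neurogenic cellulates were lower than BIO cellulates by 2.34-fold, 2.53-fold and 2.44-fold by the 3 probes. Among the 4 members with several probes, these values lay closest to each other in that comparison.

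Tuba1a is the main alpha isotype of developing neurons and was read by a single probe and spot (A_51_P169745). It read 2.18 in neurogenic cellulates, -1.56 in BIO cellulates and -0.51 in myoblasts. The probe was well above background on all 3 arrays, with intensities of 705, 39.1 and 127 where the lowest signals called well above background were 26.2, 17.3 and 13.6. It was highest in neurogenic cellulates and lowest in BIO cellulates. Neurogenic cellulates were 13.3-fold higher than BIO cellulates and 6.46-fold higher than myoblasts, and BIO cellulates were 2.06-fold lower than myoblasts. These sizes depend on the background correction: after normexp the log2 ratio of neurogenic over BIO cellulates was 2.41 in place of 3.74, and that of BIO cellulates over myoblasts was -0.34 in place of -1.04, which is no longer 2-fold. On the processed signals, 20 of 12255 genes (0.163%) had a higher ratio of neurogenic over BIO cellulates. No second Tuba1a probe could be named. There were 23 probes at least 8-fold higher in neurogenic than in BIO cellulates and well above background on both arrays. Of these, 6 belonged to genes with another measured probe. That probe was at least 2-fold higher for 2 genes, where 4.16% of all genes were. It was below 0 for 4, where the median log2 ratio of all genes was -0.17. In BIO cellulates over myoblasts the other probe was at least 2-fold higher for 24 of 30, where 11.2% of all genes were. The authors' deposited table gives the same probe a log2 difference of 3.74 between neurogenic and BIO cellulates. That table holds the same spot intensities plus a constant per array, so this value is no separate evidence. Beside Tuba1a, 1 of 7 neuronal markers compared, Tubb3 included, was at least 2-fold higher in neurogenic than in BIO cellulates, as were 4.16% of all genes. This was Nefm, a neurofilament gene, by a log2 bound of 1.20. What part the single probe has in the Tuba1a value was not tested.

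Of the beta isotypes, Tubb5 is the broadly expressed form that is abundant in dividing cells. Its brightest probe (A_52_P163796) read 6.84 in neurogenic cellulates, 7.89 in BIO cellulates and 8.61 in myoblasts, and its second 5.52, 6.36 and 7.22. The ratios of neurogenic cellulates over myoblasts lay within 1.05-fold of each other for both probes, at log2 values of -1.77 and -1.70. Tubb4b, a broadly expressed form also found in cilia, had 1 probe (A_52_P598278), which read 4.85, 5.83 and 6.83 in the same order. Tubb4a, best known from oligodendrocytes and neurons, read 5.09, 6.24 and 7.07 (A_51_P315795). In BIO cellulates over myoblasts the log2 ratios were -0.72 and -0.86 for Tubb5, -1.002 for Tubb4b and -0.83 for Tubb4a, and in neurogenic over BIO cellulates they were -1.05 and -0.84 for Tubb5, -0.97 for Tubb4b and -1.15 for Tubb4a. All 3 genes were lower at both steps, with Tubb4b past 2-fold at the first and Tubb5, by its brightest probe, and Tubb4a past it at the second. Neurogenic cellulates were 3.41-fold (Tubb5), 3.93-fold (Tubb4b) and 3.96-fold (Tubb4a) lower than myoblasts.

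Tubb2a, a major beta isotype of neurons that is also present elsewhere, had 3 probes. The brightest (A_52_P621603) read 8.32 in neurogenic cellulates, 9.35 in BIO cellulates and 9.61 in myoblasts. Its second probe read 6.71, 7.92 and 8.35, and its dimmest 1.66, 2.88 and 3.89. All 3 probes were lowest in neurogenic cellulates. The log2 ratios of BIO cellulates over myoblasts widened from bright to dim, at -0.26, -0.43 and -1.01, a range of 1.69-fold, so a 2-fold call for Tubb2a depends on the probe. In neurogenic over BIO cellulates the probes gave -1.03, -1.21 and -1.22, a range of 1.14-fold.

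Tubb2b, the close paralogue of Tubb2a expressed in immature neurons, was read by 1 probe. This probe (A_51_P514256) read -0.96 in neurogenic cellulates, -0.92 in BIO cellulates and -1.10 in myoblasts. These values differed by less than the spot-to-spot limit in each comparison, and their sign turned under other scalings. The probe sequences were not used here, and the isotypes are closely similar in their coding regions, so how far a probe also reads its paralogues was not tested.

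Tubb3, the beta isotype used as a neuronal marker, had 1 probe (A_51_P381381) in 10 spots and so carries its own spot error. It averaged 1.94 ± 0.05 in neurogenic cellulates (SD over 10 spots), 2.20 ± 0.09 in BIO cellulates (9 spots, 1 marked as an outlier) and 2.92 ± 0.06 in myoblasts (10 spots). The spots ran between 1.88 and 2.04 in neurogenic cellulates, between 2.07 and 2.34 in BIO cellulates and between 2.83 and 2.99 in myoblasts, and the 3 ranges did not overlap. Tubb3 was 1.96-fold lower in neurogenic cellulates than in myoblasts, and 1.64-fold lower in BIO cellulates than in myoblasts. Between neurogenic and BIO cellulates the log2 ratio was -0.26, close to the -0.17 over all genes, and it turned to 0.11 with spike-in scaling.

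**Figure D3:**
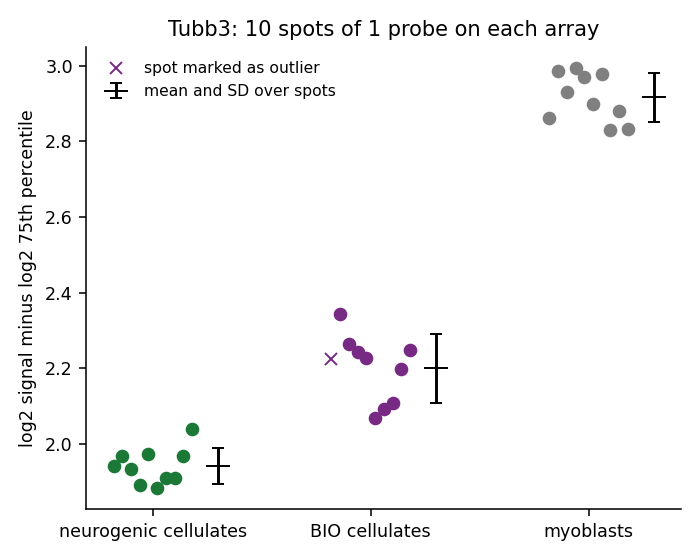
Level of Tubb3 in each of the 10 spots of its probe on each array, as log2 signal minus the log2 75th percentile (y axis), with the mean and SD over spots beside them and a cross for the spot marked as an outlier. The spots of the 3 arrays form separate groups, highest in myoblasts at 2.92, and their spread is that of spots on 1 array, not of cultures.

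Brightness moved with the ratio of neurogenic over BIO cellulates. Of the 9 genes, 5 had a mean level of 6 or more on the log2 scale, among the 694 brightest genes well above background on both arrays. In that class the median log2 ratio of neurogenic over BIO cellulates was -0.45, and it was -0.09 for genes with a mean level below 0. The 5 tubulin genes in the bright class (Tuba1c, Tuba4a, Tubb2a, Tubb4a and Tubb5) had a median of -1.05, and 4 of the 5 were at least 2-fold lower, as were 19 of all 694 (2.74%). In BIO cellulates over myoblasts the same class had a median of -0.08 and the same 5 tubulin genes had -0.72, with 1 of the 5 at least 2-fold lower, as were 37 of all 694 (5.33%). The part of brightness in the tubulin values was not tested beyond these figures and the quantile-normalised values.

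**Figure D4:**
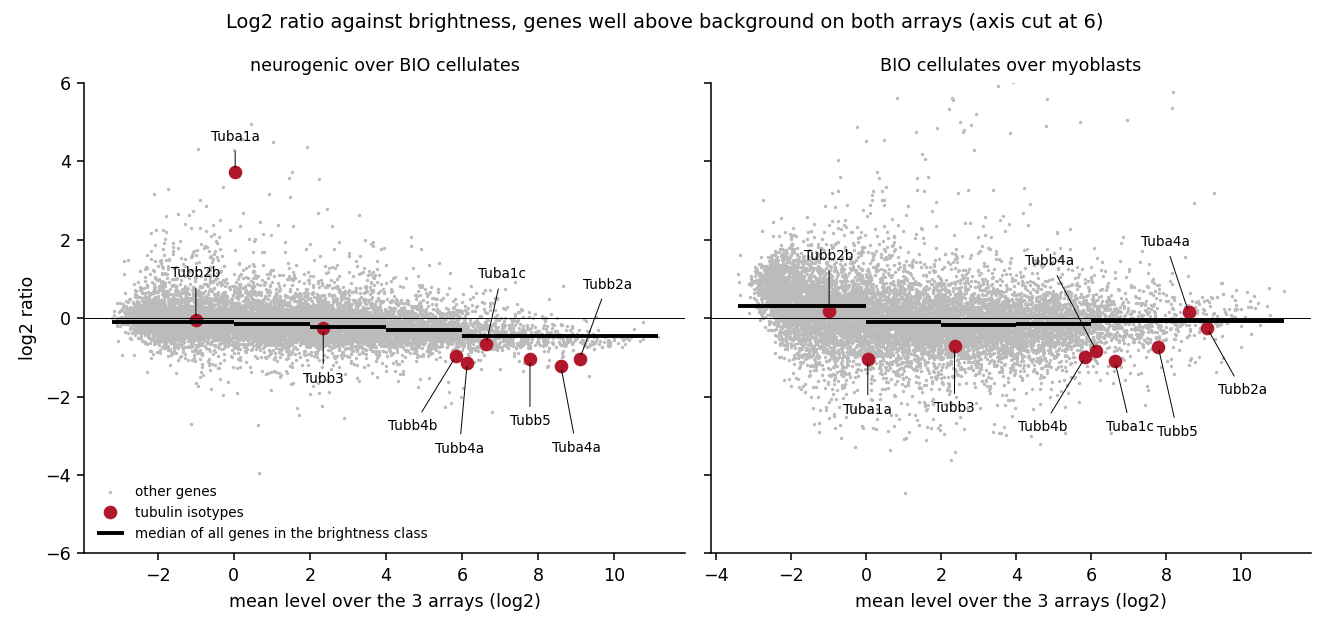
Log2 ratio (y axis) against mean level over the 3 arrays (x axis) for genes well above background on both arrays, with tubulin isotypes in red, other genes in grey and black bars for the median of all genes in each of 5 brightness classes. The bars fall with brightness for neurogenic over BIO cellulates, to -0.45, and 4 of the 5 bright tubulin genes lie at or below -1.03; points beyond ±6 are off the axis.

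Among other tubulins, 7 of 10 listed genes had a probe. Tubg1, which encodes the gamma-tubulin that nucleates microtubules, read 5.75 in neurogenic cellulates, 6.30 in BIO cellulates and 6.93 in myoblasts, a downward order like that of Tubb5. Tubb6, known in mice to increase in regenerating muscle, read 4.10 in neurogenic cellulates and 4.25 in BIO cellulates, and its myoblast spot was marked as an outlier and gave no value. Tuba3a, a testis alpha isotype, had 2 probes of very different brightness. They read 8.46 and 0.78 in BIO cellulates, and 7.23 and -0.24 in neurogenic cellulates. The brighter one lay above the brightest Tuba1c probe, which read 6.49 in BIO cellulates. The log2 ratios of neurogenic over BIO cellulates were -1.24 and -1.01 by the 2 probes. In BIO cellulates over myoblasts the probes differed in sign, at -0.537 and 0.497. Whether either probe also reads other isotypes was not tested. Tube1, for epsilon-tubulin, did not pass as well above background on any array. Over the list, 0 of 5 genes compared were at least 2-fold lower in BIO cellulates than in myoblasts, where 6% of all genes were. In neurogenic over BIO cellulates 1 of 6 (Tuba3a) was, where 1.8% of all genes were.

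Genes that fold tubulin, the CCT chaperonin, prefoldin and the tubulin cofactors, had medians below those of all genes. Their median log2 ratio was -0.30 over 20 genes in BIO cellulates over myoblasts and -0.47 over 21 in neurogenic over BIO cellulates, with 0 at least 2-fold different in either. Of all genes, 6% were lower and 11.2% higher in the first comparison, and 1.8% and 4.16% in the second. In neurogenic over BIO cellulates, all genes with mean levels between 4 and 6 had a median of -0.30, and those of 6 or more had -0.45. The part of brightness in the folding values was not tested. Against myoblasts, neurogenic cellulates had 7 of 21 at least 2-fold lower, where 10% of all genes were, and 1 higher, where 12.1% were. The higher one was the prefoldin gene Vbp1, by a bound. Among all genes with mean levels between 4 and 6, 16.6% were at least 2-fold lower, and 15.3% of those of 6 or more. The lowest were Tbcd, a cofactor that assembles the dimer, at -1.24 (levels 4.43 and 5.67), the chaperonin subunit genes Cct5 at -1.23 and Cct6a at -1.21, and Cct2 at -1.18. Genes of the feedback on tubulin mRNA stayed within 2-fold. Ttc5 read -1.51 in neurogenic cellulates, -1.20 in BIO cellulates and -1.44 in myoblasts, Scaper read -0.15, -0.76 and -0.61, and 0 of 11 genes of this list were at least 2-fold different in any of the 3 comparisons.

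Some regulators of microtubule dynamics had larger differences than the tubulins in BIO cellulates over myoblasts. The list medians there were -0.36 for destabilisers, -0.28 for stabilising proteins, -0.04 for plus-end genes, -0.11 for modifying enzymes and -0.88 for nucleation genes. The tubulin isotypes had -0.72. Of all genes in that comparison, 6% were at least 2-fold lower and 11.2% at least 2-fold higher. The destabilisers Stmn1 (stathmin, which binds free dimers) and Kif2c (a depolymerising kinesin of mitosis) had log2 ratios of -2.22 and -2.76. Of 12 genes of that list, 4 were at least 2-fold lower (Stmn3 by a bound) and 1 higher (Stmn2, at 1.02). Among stabilising proteins, the spindle gene Nusap1 had -2.77 and Map2 -2.07, whereas Mapt, the gene of tau, had 1.87, and of 12 such genes 4 were at least 2-fold lower while 2 were higher (Mapt, and Dcx by a bound). Of 18 nucleation genes, 8 were at least 2-fold lower (Tubgcp6 and Haus8 by a bound) and 2 were higher (Camsap3 at 1.23, and Pcnt by a bound). Among the lower ones were Cdk5rap2, a centrosome gene, at -1.997 and the augmin subunit genes Haus4 at -1.61 and Haus5 at -1.32. Mapre3, a plus-end protein of the EB family that is raised in differentiating muscle, had 1.79 among 10 plus-end genes, of which it alone was at least 2-fold higher and Ckap5, a microtubule polymerase gene, alone lower at -1.06. Of 17 modifying enzymes Agbl4, a deglutamylase gene, was higher at 1.50 and its relative Agtpbp1 lower at -1.06. In neurogenic over BIO cellulates, 0 genes of the stabilising, destabilising, plus-end and nucleation lists were at least 2-fold lower, where 1.8% of all genes were. Tpx2, Fignl1 and Haus1 were at least 2-fold higher, each by a bound, where 4.16% of all genes were. Of 18 modifying enzymes, Vash2, a tubulin carboxypeptidase gene, was lower at -1.07 and 0 were higher.

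**Figure D5:**
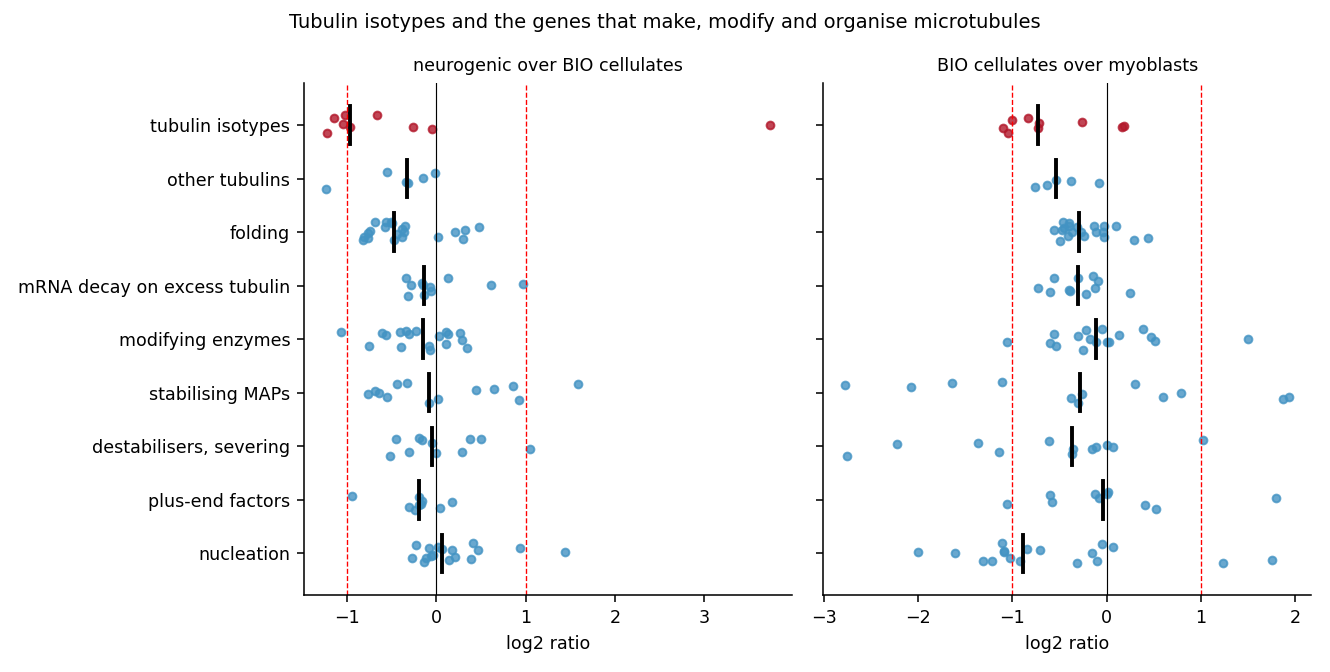
Log2 ratio (x axis) of each gene compared in the tubulin isotype list (red) and in lists of other microtubule genes (blue), with a black bar for each list's median and dashed lines at 2-fold. In neurogenic over BIO cellulates the tubulin isotypes have the lowest median, -0.97, and in BIO cellulates over myoblasts the nucleation genes have the lowest, -0.88.

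Division genes were lower beside the tubulins in BIO cellulates than in myoblasts. The summed signal of 9 proliferation markers, in multiples of the 75th percentile, was 64.9 in neurogenic cellulates, 66.7 in BIO cellulates and 274 in myoblasts. In BIO cellulates over myoblasts, 8 of 8 compared were at least 2-fold lower, where 6% of all genes were. Of these markers, Top2a and Mcm5 did not pass as well above background in BIO cellulates, nor Top2a in myoblasts. Between neurogenic and BIO cellulates the same list had a median of 0.08, and 0 of 9 were at least 2-fold lower, where 1.8% of all genes were. Mcm5 was higher by a bound, where 4.16% of all genes were at least 2-fold higher. Of the tubulin isotypes, 4 of 9 were at least 2-fold lower there. That count was 0 with spike-in scaling (0.677% of all genes) and with quantile normalisation (1.70%). The part of cell division in the tubulin values was not tested.

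Some other genes had ratios close to the members' median over the 3 arrays. By Euclidean distance over the log2 ratios of BIO cellulates over myoblasts and of neurogenic over BIO cellulates, the 5 genes nearest to the members' median (-0.72 and -0.97) were Adamts2, Chsy1, Kazn, Mmp23 and Armc9, at distances between 0.03 and 0.08. Among the members, Tubb5 was nearest at 0.07 and Tuba1a farthest at 4.72. As near as the middle member were 311 of 10654 other genes (2.92%).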

How the data were processed

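Per the labels, 200 ng of total RNA from each culture was labelled with Cy3. Spots of array design 014868 (build mm9) were read by Feature Extraction 10.7.3.1 from Agilent, per the file headers, which gave background-subtracted, detrended spot intensity values, and median intensities for the alternative. The authors' deposited table is on the log2 scale: each column equals log2 intensity plus a constant (0.23, 0.67 and 0.00 for neurogenic cellulates, BIO cellulates and myoblasts), with column medians of 7.88, 7.77 and 7.42 and few values for dim probes. Its direction and lack of gene centring follow from this match; how the constants were set is unknown. Columns of other samples numbered 0.

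Control and outlier spots were left out, spots averaged and each array scaled to its 75th percentile (156, 115 and 181 units in the same order). Probes were named by unversioned accession in the RefSeq table of GRCm38.p6 (26918 of 41174). A gene took its brightest probe. A gene well above background on 1 array of a pair entered as a bound. The bound was taken from the gene's own dim value or, if larger, the dim array's lowest signal well above background. Those lowest signals were -2.57, -2.73 and -3.73 after scaling, in the same order. Genes with another probe well above background on an array where the brightest was dim were left out. Calls are at 2-fold, without tests. The procedure was tested on simulated data. All probes of the members are reported, and of each other list up to 5 genes with the largest log2 ratios past 2-fold were named, plus genes in the background on folding and mRNA feedback. Genes behind small counts, marker genes, Tubg1, Tubb6, Tube1 and Ckap5 were named after their values were seen. Members and lists were chosen with earlier results of these data known. The alternatives used limma 3.58.1 in R 4.3.3 and numpy 2.4.6. Protein sequences were not used here.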

Additional observations from a re-analysis of the deposited data

How the results depend on the processing

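The direction of the members' median was kept in all 3 comparisons under all 10 alternatives, and so were the signs of Tuba1a, Tuba1c, Tubb2a, Tubb4a, Tubb4b and Tubb5. Not all 10 were able to change them. Leaving out bounds and dropping the filter on dim probes left the members' medians unchanged, since every member probe was well above background. Keeping outlier spots also left them unchanged. Among the members it moved Tubb3 alone, which was not the middle gene, from -0.258 to -0.260 in neurogenic over BIO cellulates. The authors' deposited table holds the same intensities plus a constant per array, so it is no separate check. Values nevertheless moved with the scaling, which shifts other genes as well. In BIO cellulates over myoblasts, the median of all genes was 0.00 and moved to -0.66 with array-median scaling, 0.13 with the percentile over probes well above background and 0.26 without the filter on dim probes. The members' median was then -1.44 with 6 genes at least 2-fold lower under array-median scaling, where 28.8% of all genes were lower. The count was 0 with the percentile over probes well above background (4.32% of all genes) and 1 with quantile normalisation (6.30% of all genes). Set relative to all genes, the members' median ran between -0.99 and -0.64 over all settings. In neurogenic over BIO cellulates, the count of lower genes was 1 with that percentile, 0 with spike-in scaling (median -0.61) and quantile normalisation (median -0.46), and 2 with normexp. The shares of all genes that were lower were 1.11%, 0.677%, 1.70% and 0.571% in the same order. Relative to all genes, the members' median ran between -0.88 and -0.38. In neurogenic cellulates over myoblasts the median was -2.02 with array-median scaling, -0.94 with the percentile over probes well above background, -0.74 with quantile normalisation and -1.65 when a gene took the median of its probes. Over all called genes the share that was higher was 65.2% in BIO cellulates over myoblasts and ran between 9.07% and 81.0% over the alternatives. It was 69.9% in neurogenic over BIO cellulates, with a range of 62.5% to 92.1%, and 54.7% in neurogenic cellulates over myoblasts, with a range of 11.5% to 78.9%. Tubb4b, at 2-fold in the first comparison, was -0.99 in the authors' deposited table. Tuba1a ran between 2.41 (normexp) and 4.10 (spike-in scaling) in neurogenic over BIO cellulates and between -1.76 and -0.34 in BIO cellulates over myoblasts. The cause of these shifts was not tested.

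No paired analysis was possible because each group has 1 array. Signal over background limits Tuba1a and Tubb2b, whose probes lay near background on at least 1 array.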
